A study of Homo sapiens with 15 samples.

Results

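The MYC-MAX-Mondo network was followed as 10 genes chosen by symbol for their known roles: MYC, MAX, MXI1, MXD3, MXD4, MNT, MLX, MLXIP, TXNIP and ARRDC4. These members, and the gene lists and motifs below, were chosen with earlier results of these data known. Their counts and medians beside those of all genes are therefore descriptions only. All 10 were among the 16382 genes listed for MRC5 cells, and 9 were among the 16076 genes listed for H196 cells, for which TXNIP was not analysed here. Every listed member was abundant enough to be tested, so the members made up 10 of 12819 genes tested in MRC5 cells and 9 of 12806 in H196 cells.

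RNA was sequenced from MRC5 cells, a line of normal human lung fibroblasts, and from H196 cells, a non-neuroendocrine small cell lung cancer (SCLC) line. The study asked how fibroblasts and SCLC cells change each other across a porous Transwell membrane, with the sequenced cells in the plate and their partner on the insert for a week. MRC5 cells were cultured alone (MRC5_Mo), with the neuroendocrine SCLC line H69 (MRC5_CoH69) or with H196 (MRC5_CoH196), while H196 cells were cultured alone (H196_Mo) or with MRC5 (H196_Co). Each of the 5 groups had 3 libraries, 15 in all. No group carried an engineered allele or received a drug, and each cell type was represented by a single line. H69 cells were not sequenced here. The SCLC lines were kept in RPMI and MRC5 cells in MEM, and the medium of the co-cultures was not given in the sources used here. The 3 replicates per group were called parallel, with nothing said of separate cultures, so p-values measured the spread between these samples, which may be technical.

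Total counts were 18476890 to 19170560 per MRC5 library and 16073597 to 17358349 per H196 library. Markers were checked against the labelled lines. All 8 fibroblast markers were at or above a mean of 1 CPM (counts scaled to library size) in MRC5 cells, with a summed level of 26873 to 31787 CPM in MRC5_Mo and MRC5_CoH69 and 12804 to 13561 CPM in MRC5_CoH196. The lower sum went with the collagens COL1A1 (log2 fold change -1.57 against MRC5_Mo), COL3A1 (-2.09) and COL1A2 (-0.56), while PDGFRB (0.67), PDGFRA, LUM and DCN rose and THY1 did not pass (list median 0.04). The same markers summed to 2.05 to 3.09 CPM in H196 cells. Markers of non-neuroendocrine SCLC, which fibroblasts also express, summed to 865 to 948 CPM in H196 cells and to 1812 to 2020 CPM in MRC5 cells, so they do not tell the lines apart. Neuroendocrine SCLC markers summed to at most 1.07 CPM in MRC5 cells and to 24.9 to 27.7 CPM in H196 cells. No library was a copy of another. H196_Co replicates 1 and 2 stood farthest apart within a group, at a chi-square per degree of freedom of 11.2. Replicate 3 stood at 6.56 from replicate 1 and 6.19 from replicate 2. Whichever H196 library was left out, no member gained or lost an adjusted p under 0.05 in H196 cells. Without H196_Co replicate 1, MLXIP went from 0.16 to 0.23 on the log2 scale (adjusted p = 0.0556, edgeR), MNT from 0.09 to 0.17 and MLX from -0.07 to -0.15.

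MAX is the shared partner of the network. With MYC it binds the E-box CACGTG and activates genes of ribosome assembly, nucleotide synthesis and growth, while MXI1, MXD3, MXD4 and MNT compete for MAX at the same boxes and recruit SIN3 corepressors. MLX is the matching partner of the Mondo arm: with MondoA, the product of MLXIP, it senses glucose phosphates and switches on TXNIP and ARRDC4, a pair of alpha-arrestins that restrain glucose uptake.

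The promoters of the output genes were read from RefSeq (GRCh38.p14), which listed 13 start sites for 9 of the 10 members and none for MYC. The 250 bases before each start were searched on both strands, here and in all 35116 listed promoters, with position -1 just before the start. A pair of E-box-like sites in the form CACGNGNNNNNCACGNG, the carbohydrate response element that MondoA and MLX bind, was present in 0.0456% of all promoters and, among the members, in TXNIP only. It ran from -88 to -72. The perfect E-box CACGTG was present in 6.34% of promoters and in those of 4 members, MXD4, MNT, MLX and ARRDC4. The core ACGTG, which is part of CACGTG, was present in 18.5% and the related GCGTG in 32.2%. Of the 9 members with listed promoters, 7 had ACGTG (MAX, MXI1, MXD4, MNT, MLX, TXNIP and ARRDC4). GCGTG was present in 6 (MXI1, MXD3, MLX, MLXIP, TXNIP and ARRDC4). Neither core was particular to MXI1. Each was found in members that rose, fell or did not pass in MRC5_CoH196 against MRC5_Mo. The stretches below are shown because these 3 genes answered differently, and capitals mark the TXNIP pair, the ARRDC4 E-box with the GCGTG (reverse strand) that follows it, and the GCGTG and ACGTG (reverse strand) of MXI1, in that order. They lie at chr1:145996630-145996689 (minus strand), chr15:97960465-97960524 (plus strand) and chr10:110210076-110210135 (plus strand, the second of 3 listed starts).
TXNIP: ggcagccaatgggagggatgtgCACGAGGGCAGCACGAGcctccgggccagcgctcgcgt
ARRDC4: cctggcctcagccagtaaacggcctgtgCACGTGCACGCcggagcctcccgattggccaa
MXI1: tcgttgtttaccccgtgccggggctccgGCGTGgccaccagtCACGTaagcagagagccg
These matches describe the letters only, and binding was not measured.

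In MRC5 cells grown with H196, 5 members rose and 3 fell. The repressor partner MXI1 rose most, followed by TXNIP, MYC and MLXIP, and MNT rose by less. MXD4, MXD3 and MAX itself fell, while MLX and ARRDC4 did not pass the test. A gene passed when edgeR's quasi-likelihood test gave a Benjamini-Hochberg adjusted p under 0.05 over all genes tested, and was called when its log2 fold change also exceeded 0.58 in size. Against MRC5_Mo, 4 of 10 members were called, all higher, where 31.9% of all genes were called and 17.2% were called higher. On both FPKM scales in limma 4 were also called, but MLXIP was under the fold limit and MXD4 was called lower. The 8 that passed stood beside 74.3% of all genes that passed. In the same 8 members no CPM value of one group lay within the range of the other, where 75.5% of all genes were so separated. For this and later overlaps of CPM between groups, library sizes were multiplied by edgeR's TMM scaling factors. Overlap can therefore differ from that of CPM scaled to library size alone. The median log2 fold change over the members was 0.31, beside -0.003 over all genes. In bulk RNA, fewer cells of a kind and less RNA per cell cannot be told apart. Of the 8 fibroblast markers 4 rose and 3, all collagens, fell in the same libraries, and their part in these changes was not tested.

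**Figure D1:**
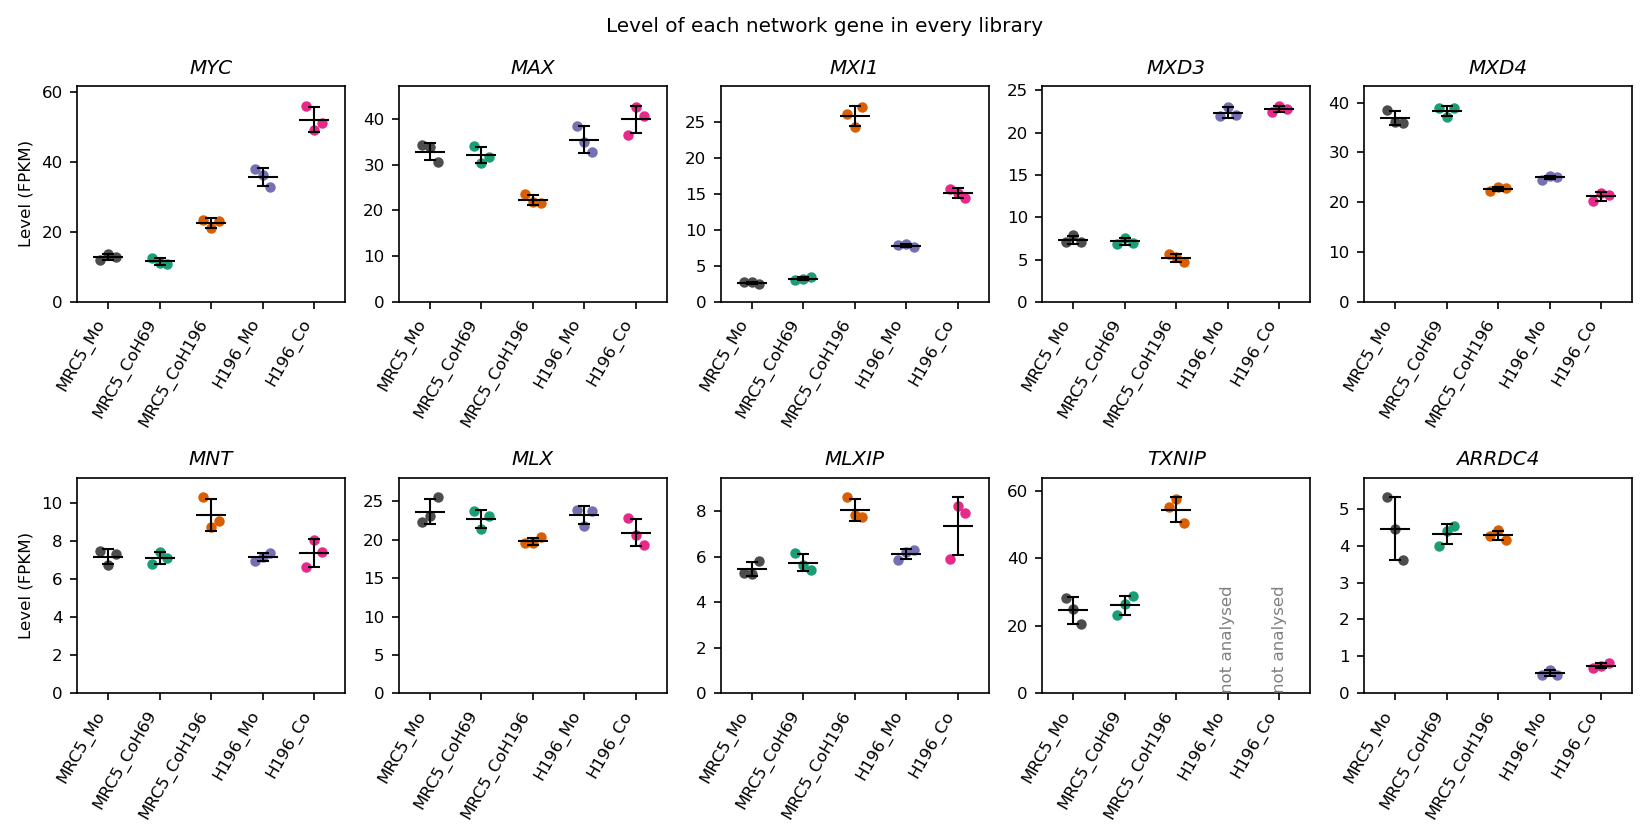
Level of each member in FPKM, a read level per gene length and library size (linear axes from 0), in every library of the 5 groups; points are libraries, bars the mean and SD of 3. MXI1 and TXNIP stood highest in MRC5_CoH196, while MYC and MXD3 were higher in both H196 groups than in any MRC5 group, and ARRDC4 was under 0.84 FPKM in H196 cells.

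MYC, the activating partner, had 798, 903 and 838 counts in MRC5_Mo and 858, 733 and 715 in MRC5_CoH69. It had 1591, 1379 and 1580 counts in MRC5_CoH196. All 3 libraries with H196 were above all 6 others. The log2 fold change against MRC5_Mo was 1.0 (SE 0.063, adjusted p = 3.07e-13, edgeR), or 2.0-fold, and 92.4% of genes tested had a lower one. H196 cells held more MYC to begin with, at 2181, 2259 and 2057 counts in H196_Mo, and 3449, 2958 and 3112 in H196_Co, again without overlap. The rise in H196 cells was 0.62 (SE 0.075, adjusted p = 6.14e-06, edgeR). It was 0.55 without H196_Co replicate 1 and 0.57 without H196_Mo replicate 3, both passing the test and both under the 0.58 limit. On the per-length FPKM scale the order of mean MYC levels was H196_Co (52.2 ± 3.63, SD, n = 3), H196_Mo (35.8 ± 2.53), MRC5_CoH196 (22.6 ± 1.3), MRC5_Mo (12.8 ± 0.830) and MRC5_CoH69 (11.6 ± 0.975), in which only MRC5_Mo and MRC5_CoH69 overlapped. FPKM values of the MRC5 and H196 tables were each scaled on their own, so levels across the lines are set side by side.

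MAX (chr14:65006101-65102695) moved the other way in the fibroblasts. Its counts were 893, 874 and 892 in MRC5_Mo, 912, 816 and 891 in MRC5_CoH69, and 682, 626 and 638 in MRC5_CoH196. The last 3 libraries were the lowest of the 9. MAX fell by 0.29 on the log2 scale (SE 0.054, adjusted p = 3.30e-05, edgeR). In H196 cells it had 900, 966 and 895 counts alone and 969, 1009 and 951 with MRC5, a log2 fold change of 0.15 (95% interval 0.0066 to 0.30) that did not pass (adjusted p = 0.131, edgeR). The ratio of MYC to MAX in FPKM was 0.350, 0.404 and 0.416 in the MRC5_Mo libraries and 0.991, 0.964 and 1.08 in MRC5_CoH196. It was 0.986, 1.03 and 1.01 in H196_Mo. The mean ratio in fibroblasts with H196 was 1.01 ± 0.059 (SD, n = 3), beside 1.01 ± 0.024 in tumor cells alone. The groups did not overlap between MRC5_CoH196 and MRC5_Mo, and an exact permutation test of 3 against 3 (two-sided) gave 0.1, the smallest p it allows.

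MXI1 (chr10:110207605-110287365), a MAX partner of the repressing MXD family, rose in both lines. It had 161, 157 and 143 counts in MRC5_Mo, 175, 182 and 200 in MRC5_CoH69, and 1557, 1386 and 1605 in MRC5_CoH196. The lowest library with H196 held several times the highest of the other 6. The log2 fold change of MXI1 against MRC5_Mo was 3.46 (SE 0.072, adjusted p = 8.91e-23, edgeR), or 11-fold, the 72nd highest of 12819 genes. In H196 cells MXI1 had 382, 418 and 394 counts alone and 838, 799 and 756 in co-culture, without overlap. The rise was 1.07 (SE 0.078, adjusted p = 5.66e-09, edgeR), or 2.1-fold, the 118th highest of 12806 genes, and was 1.03 without H196_Co replicate 1. Mean MXI1 levels ran from 25.8 ± 1.4 FPKM (SD, n = 3) in MRC5_CoH196 through 15.1 ± 0.674 in H196_Co, 7.82 ± 0.217 in H196_Mo and 3.20 ± 0.206 in MRC5_CoH69 to 2.68 ± 0.144 in MRC5_Mo, and no neighbors in this order overlapped.

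The other repressing partners changed less and in different directions. MXD4 (chr4:2247432-2262109), the most abundant of them in MRC5_Mo, had 2593, 2442 and 2394 counts there and 1524, 1524 and 1569 in MRC5_CoH196. It fell by 0.53 on the log2 scale (SE 0.045, adjusted p = 1.10e-10, edgeR), and was at -0.68 on log2(FPKM + 1) by limma, past the fold limit. MNT (chr17:2384073-2401104), an MXD-like partner made in most cells, had 661, 592 and 628.71 expected counts in MRC5_Mo and 896, 724 and 789 in MRC5_CoH196, and rose by 0.51 (SE 0.066, adjusted p = 1.37e-07, edgeR). MXD3 (chr5:177305499-177312752), an MXD member found in dividing cells, was lower at 87, 76 and 71 counts than at 106, 117 and 108, with a log2 fold change of -0.34 (SE 0.13, adjusted p = 0.0191, edgeR). MXD3 no longer passed without MRC5_Mo replicate 2 (adjusted p = 0.0675, edgeR) or MRC5_CoH196 replicate 3 (0.0850, edgeR), and in DESeq2 (0.0696). None of MXD3, MXD4 and MNT passed in H196 cells by edgeR, while limma on log2(FPKM + 1) passed MXD4 (-0.23, adjusted p = 0.0275). There the log2 fold changes were 0.09 for MXD3 (95% interval -0.092 to 0.27), -0.16 for MXD4 (-0.31 to -0.016) and 0.09 for MNT (-0.090 to 0.27).

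The make-up of the repressing arm therefore differed between the groups. MXI1 made up 4.95%, 5.15% and 4.75% of the summed FPKM of MXI1, MXD3, MXD4 and MNT in MRC5_Mo, and 40.6%, 39.6% and 42.5% in MRC5_CoH196. The share of MXD4 moved from 69.0%, 67.6% and 68.0% to 34.5%, 37.5% and 35.9%. Per length, on the FPKM scale, MXD4 was the main transcript of the 4 in fibroblasts alone, and MXI1 was in fibroblasts with H196. In H196 cells MXI1 went from 12.5% ± 0.344 (SD, n = 3) alone to 22.7% ± 1.31 in co-culture and MXD4 from 40.1% ± 0.308 to 31.9% ± 0.716. The summed FPKM of the 4 repressing partners was 4.24 ± 0.377 times that of MYC in MRC5_Mo, 2.80 ± 0.098 times in MRC5_CoH196, 1.75 ± 0.133 times in H196_Mo and 1.28 ± 0.118 times in H196_Co. Libraries of co-culture with H196 or MRC5 and of mono-culture did not overlap in any of these values, and each exact permutation test of 3 against 3 (two-sided) gave 0.1, the smallest p possible. MXI1 alone equalled 0.210 ± 0.018 of the MYC level in MRC5_Mo and 1.14 ± 0.026 in MRC5_CoH196, so its transcript passed that of MYC per length.

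**Figure D2:**
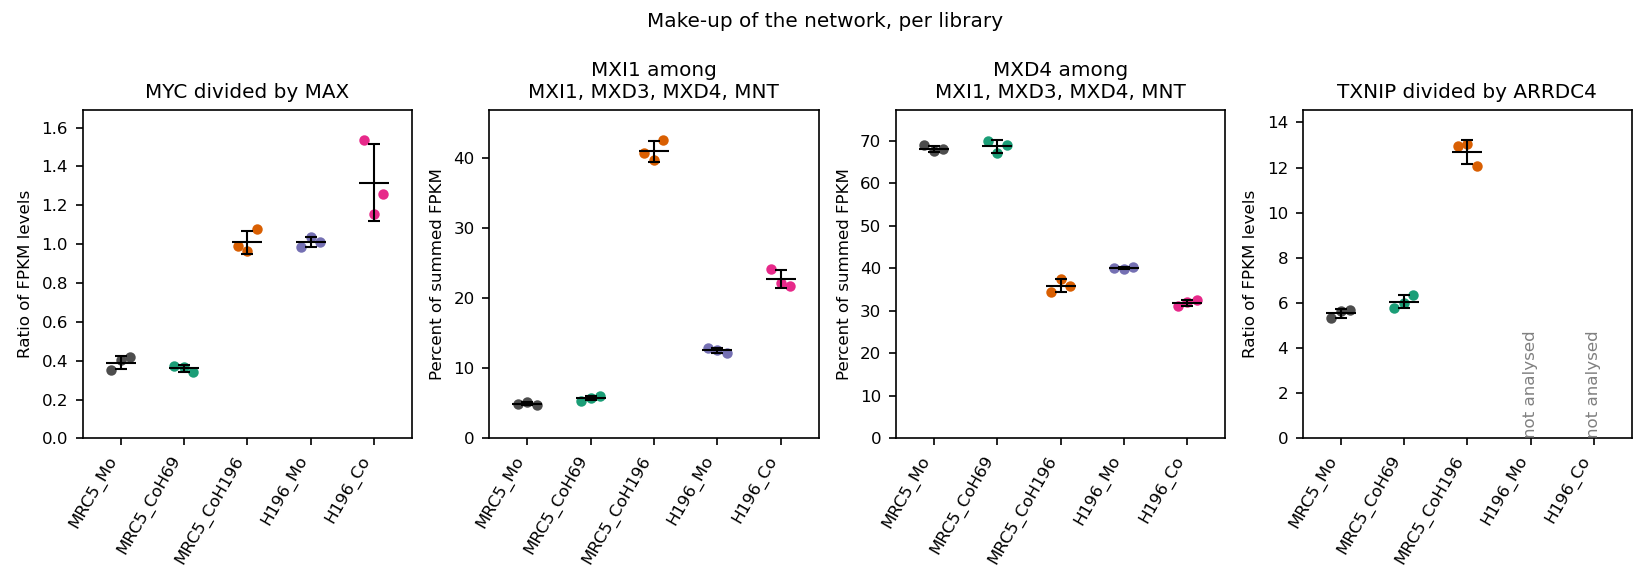
Ratios of FPKM levels (first and last panels) and percent of the summed FPKM of MXI1, MXD3, MXD4 and MNT (middle panels) in every library; points are libraries, bars the mean and SD of 3. MYC over MAX reached 1.01 in MRC5_CoH196 from 0.390 in MRC5_Mo, MXI1 had the largest share of the repressing partners in MRC5_CoH196 and MXD4 in MRC5_Mo, and TXNIP over ARRDC4 went from 5.54 to 12.7.

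In the Mondo arm the sensor rose and its partner did not pass the test. MLXIP, which encodes MondoA, had 801, 794 and 874 counts in MRC5_Mo and 1337, 1153 and 1194 in MRC5_CoH196, without overlap. It rose by 0.74 (SE 0.061, adjusted p = 6.57e-11, edgeR), or 1.66-fold. MLX (chr17:42567099-42573203) had 868, 901 and 983 counts and 777, 748 and 806, and its log2 fold change of -0.08 (95% interval -0.20 to 0.038) did not pass (adjusted p = 0.206, edgeR). On log2(FPKM + 1), where the median of all genes moved to -0.13, limma gave MLX -0.24 (adjusted p = 0.00181) and MLXIP 0.49 (adjusted p = 2.70e-05), the latter under the 0.58 limit. In H196 cells neither passed: MLXIP had 755, 865 and 874 counts alone and 782, 901 and 966 in co-culture, and MLX had 792, 790 and 853 and then 810, 718 and 681. Both overlapped between the groups. MLXIP and MLX levels lay in narrow bands, with means of 5.46 to 8.06 FPKM for MLXIP and 19.8 to 23.7 FPKM for MLX over the 5 groups, and every neighbor in either order overlapped.

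The output genes of the Mondo arm parted. TXNIP (chr1:145992296-145996579), a thioredoxin-binding arrestin that drives glucose transporters off the cell surface, had 1393, 1238 and 995 counts in MRC5_Mo, 1153, 1283 and 1410 in MRC5_CoH69, and 2775, 2777 and 2520 in MRC5_CoH196. Every library with H196 was above all others. TXNIP rose by 1.31 (SE 0.078, adjusted p = 1.02e-13, edgeR), or 2.49-fold, and stood higher than 95.4% of genes tested. ARRDC4 (chr15:97960703-97973833), the related arrestin, had 377, 317 and 253 counts in MRC5_Mo and 309, 308 and 301 in MRC5_CoH196, which lay within that range. Its log2 fold change was 0.11 (95% interval -0.086 to 0.31) and did not pass (adjusted p = 0.292, edgeR). It turned on MRC5_Mo replicate 1, without which it was 0.26 and passed (adjusted p = 0.0136), and on FPKM + 1 it was -0.04. The ratio of TXNIP to ARRDC4 in FPKM was 5.33, 5.63 and 5.68 in MRC5_Mo and 12.9, 13 and 12.1 in MRC5_CoH196. MRC5_Mo replicate 3 was the lowest of its group in both genes and the highest in this ratio, at 5.68.

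ARRDC4 was low in the tumor cells, at 31, 42 and 33 counts in H196_Mo and 44, 47 and 53 in H196_Co. The libraries did not overlap, yet the log2 fold change of 0.51 (95% interval 0.11 to 0.91) did not pass (adjusted p = 0.0654, edgeR). Set against MRC5_Mo, ARRDC4 was 3.45 lower in H196_Mo on the log2 scale (log2 fold change -3.45, SE 0.14, adjusted p = 7.80e-19, edgeR).

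The paired element shown for TXNIP was listed for 16 genes, of which 14 were tested in MRC5 cells. Against MRC5_Mo, 5 of these rose, 7 fell and 2 did not pass in MRC5_CoH196, where 37.2% of all genes rose and 37.1% fell. P4HA1, a collagen prolyl hydroxylase, and GFPT1, the entry enzyme of hexosamine synthesis, rose with TXNIP, at 1.84 and 0.75. The pair was thus found before genes that rose and before genes that fell. These genes were named after their values were seen.

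In H196 cells grown with MRC5, MXI1 and MYC were the members that rose and none fell. They were also the 2 members called of 9, where 3.86% of genes were called, 3.26% higher and 0.601% lower. Of all genes 19.8% passed. In 6 of 9 members TMM-scaled CPM values did not overlap between the groups (MYC, MAX, MXI1, MXD3, MXD4 and ARRDC4), where 37.2% of all genes did not. On the FPKM scale MAX and MXD3 did overlap. The median log2 fold change over the members was 0.15, beside -0.001 over all genes.

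**Figure D3:**
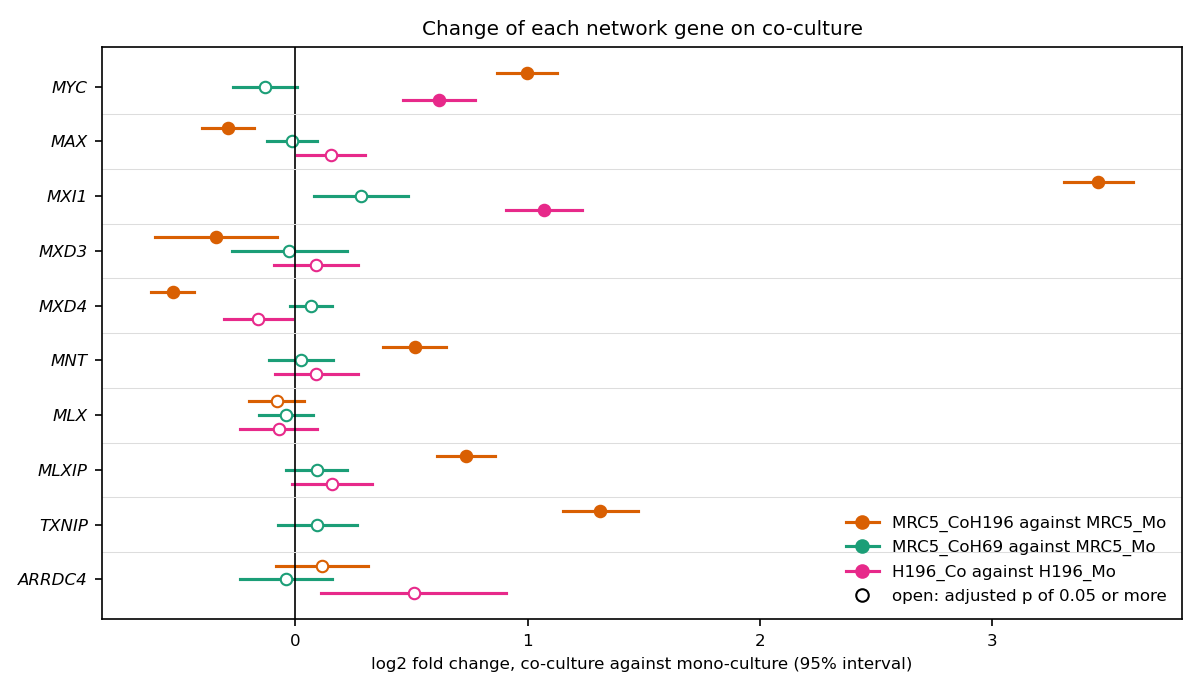
log2 fold change of each member (x axis, with 95% interval) on co-culture against mono-culture of the same line, for MRC5 with H196, MRC5 with H69 and H196 with MRC5; filled points passed (adjusted p under 0.05). MXI1 (3.46 and 1.07) and MYC (1.0 and 0.62) were filled in both co-cultures of MRC5 and H196, and no point was filled for MRC5 with H69.

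With H69 as the partner, no member passed in MRC5 cells by edgeR, DESeq2 or limma on log2(FPKM + 1), and 1, MXI1, was under an unadjusted p of 0.05 in each. Of all genes, 0.554% were called (0.421% higher and 0.133% lower) and 6.7% passed (3.78% higher and 2.93% lower). MXI1 was also the 1 member whose CPM values did not overlap, where 25.7% of genes did not. Its log2 fold change was 0.28 (95% interval 0.078 to 0.48, adjusted p = 0.0893, edgeR). The other intervals all included 0. MYC was at -0.13 (-0.27 to 0.0082), TXNIP at 0.09 (-0.074 to 0.26) and MLXIP at 0.09 (-0.039 to 0.22). A miss of the threshold does not show that the levels were equal.

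MRC5 cells with H196 were also set against MRC5 cells with H69, a comparison that shares libraries with the ones above. Here 5 of 10 members were called, 4 higher and 1 lower, where 28.2% of genes were called, 15.2% higher and 13.1% lower. In all, 5 members rose and 3 fell, where 35.7% of genes rose and 36.6% fell. Of the falls that of MXD3 (adjusted p = 0.0310, edgeR) was lost in DESeq2 (0.107) and without MRC5_CoH69 replicate 2 (0.130), MRC5_CoH196 replicate 2 (0.0708) or MRC5_CoH196 replicate 3 (0.126). MXI1 was higher by 3.18 (SE 0.070), TXNIP by 1.22 (SE 0.077), MYC by 1.13 (SE 0.063) and MLXIP by 0.64 (SE 0.060), which passed but was under the fold limit on log2(FPKM + 1) by limma (0.43). MXD4 was lower, at -0.60 (SE 0.045), and was no longer called without MRC5_CoH69 replicate 1 (-0.579). The largest adjusted p of these 5 was 8.09e-10 (edgeR), and the TMM-scaled CPM values of 9 of 10 members did not overlap, where 73.1% of genes did not. ARRDC4 was among the 9, overlapped on the FPKM scale and did not pass (log2 fold change 0.15, adjusted p = 0.159, edgeR).

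The fibroblast and tumor responses were compared in 1 fit of all 15 libraries, where a negative difference means a smaller rise in H196 cells. Of 9 members tested, 3 differed upward and 4 downward, where 27.1% and 24.1% of genes did (51.2% in all), and 1 was past the fold limit, where 24.7% of genes were. That member was MXI1, with a difference of -2.36 (SE 0.11, adjusted p = 6.80e-16, edgeR). The difference for MLXIP was -0.55 (SE 0.11, adjusted p = 8.84e-05) and ran from -0.47 without H196_Co replicate 1 to -0.64 without MRC5_CoH196 replicate 2. It was past the fold limit without MRC5_Mo 3, MRC5_CoH196 2 or 3, H196_Mo 1 or H196_Co 3. MYC differed by -0.35 (SE 0.099, adjusted p = 0.00381, and 0.0564 by limma on log2(FPKM + 1)) and MAX by 0.47 (SE 0.083, adjusted p = 2.84e-05). On the count scale the rises of MXI1 and MYC were thus larger in fibroblasts.

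Before any co-culture the lines already differed in the network. In H196_Mo against MRC5_Mo all 9 members passed, 3 higher and 6 lower, where 44% of genes were higher and 42.6% lower. Of these 3 were called higher and 2 lower, where 31.5% and 30.2% of genes were, 61.7% in all. TMM-scaled CPM values of all 9 did not overlap between the lines, where 87.6% of genes did not. On the FPKM scale MAX, MNT and MLX did overlap. MXD3 (1.18, SE 0.096), MXI1 (1.08, SE 0.087) and MYC (1.06, SE 0.072) were higher in the tumor line, and MXD4 (-1.0, SE 0.051) and ARRDC4 were lower. All 5 had adjusted p-values of at most 3.62e-12 (edgeR). MAX, MNT, MLX and MLXIP were lower by 0.24 to 0.47 on the count scale. On log2(FPKM + 1) by limma, where the median of all genes was 0.34 in place of 0.03, MXD4 was at -0.54 and no longer past the fold limit. None of MAX, MNT, MLX and MLXIP passed there and MAX (0.10) and MLXIP (0.14) turned positive, so their direction rested on the scale.

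Mean FPKM levels (SD, n = 3) of the other members are given by group. MXD3 was higher in the tumor line, at 22.8 ± 0.405 in H196_Co and 22.3 ± 0.632 in H196_Mo, which overlapped, then 7.32 ± 0.465 in MRC5_Mo and 7.13 ± 0.373 in MRC5_CoH69, which also overlapped, and 5.23 ± 0.478 in MRC5_CoH196, apart from both. MXD4 and ARRDC4 were higher in fibroblasts. MXD4 stood at 38.3 ± 1.08 in MRC5_CoH69 and 36.9 ± 1.41 in MRC5_Mo, which overlapped, above 25 ± 0.383 in H196_Mo, 22.7 ± 0.444 in MRC5_CoH196 and 21.2 ± 0.867 in H196_Co, each apart from its neighbor. ARRDC4 overlapped among the 3 MRC5 groups (means of 4.28 to 4.46) and was apart from 0.75 ± 0.0755 in H196_Co and 0.55 ± 0.0781 in H196_Mo. MAX, MNT and TXNIP had 1 group apart, MRC5_CoH196. MAX was lowest there (22.4 ± 1.11) and overlapped from group to group over the other means of 32.1 to 39.9. MNT was highest there (9.37 ± 0.839), above overlapping means of 7.11 to 7.38, and so was TXNIP (54.4 ± 3.69), above 26.1 ± 2.82 in MRC5_CoH69 and 24.6 ± 3.94 in MRC5_Mo, which overlapped.

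Of the network genes outside the 10, MYCN, MYCL and MLXIPL were scarce and MGA was not. MYCN was listed at 0 in H196_Mo and had at most 1 count in H196_Co, and MYCL, the SCLC-associated relative of MYC, had 5 to 9 counts in MRC5_Mo, 15 to 17 in MRC5_CoH196, 29 to 37 in H196_Mo and 42 to 43 in H196_Co. MXD1, the founding MXD member, had mean levels of 1.36 ± 0.199 FPKM (SD, n = 3) in MRC5_Mo, 1.75 ± 0.087 in MRC5_CoH196, 1.65 ± 0.158 in H196_Mo and 2.12 ± 0.105 in H196_Co. It rose in both, by 0.54 (SE 0.11, adjusted p = 9.88e-05) and 0.44 (SE 0.11, adjusted p = 0.00941, edgeR). MGA, which joins MAX to a repressive Polycomb complex, stood at 2.78 ± 0.078 FPKM (SD, n = 3) in MRC5_Mo and 10.35 ± 0.546 in H196_Mo. It rose by 0.29 in MRC5_CoH196 and did not pass in H196_Co (-0.22, adjusted p = 0.0810, edgeR). MXD1 and MGA were left out of the shares and ratios of the repressing partners above. MLXIPL, the liver-type Mondo gene, had 14 to 21 counts in H196 cells.

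Genes that MYC is known to induce, a list chosen with earlier results of these data known, went down in the fibroblasts whose MYC transcript rose. Of 27 tested, 23 fell, 3 rose and 1 did not pass, where 37.1% of all genes fell and 37.2% rose, and the list median was -0.65. TFRC, the transferrin receptor (-2.22), ODC1, the first enzyme of polyamine synthesis (-1.74), and NOP16, a nucleolar factor (-1.52), fell most. Those that rose were CCND2 (0.67), SHMT2 (0.43) and FBL (0.11). The wider Hallmark MYC target sets, as annotated in the deposited tables and including MYC itself, went the same way. They share genes with the list and with each other, such as ODC1, NOP16 and RRP9, so they are not separate evidence. In V1, 145 of 200 fell and 35 rose (median -0.40), and in V2, 50 of 58 fell and 2 rose (median -0.78). Glycolytic genes led the other direction in them, PGK1 at 1.80 in V1 and HK2 at 2.38 in V2. Of 7 genes MYC is known to repress, 6 rose, where 37.2% of all genes rose. Among them were NDRG1 (4.93) and the cell-cycle inhibitors CDKN1A (0.91) and CDKN1B (0.71), while CDKN2B fell (-0.77).

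The same lists stood otherwise in H196 cells. Of the 27 MYC-induced genes tested there, 8 rose, 1 fell and 18 did not pass, where 12% of all genes rose (median 0.08). TERT, the telomerase catalytic subunit, rose by 0.78, and TFRC fell by 0.62. Of the 7 MYC-repressed genes, 3 rose, led by NDRG1 (1.72), and CDKN2B fell (-0.65). In V1, 22 of 199 rose and 3 fell (median 0.02), and in V2, 8 of 58 rose and 2 fell (median 0.08). Of all genes 12% rose and 7.78% fell, so the rises in V1 and V2 lay near the share of all genes. The difference between the responses, tested gene by gene, was positive and passed for 22 of 28 MYC-induced genes and negative for 0 (median 0.78 beside 0.03 over all genes). In V1 it was positive and passed for 144 of 200 genes and negative for 9, and in V2 for 49 of 58 and for 2. Of all genes, 27.1% differed upward and 24.1% downward. With H69, 8 of 27 MYC-induced genes were lower in MRC5 cells and 0 higher, where 2.93% of genes were lower, none past the fold limit (median -0.13).

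**Figure D4:**
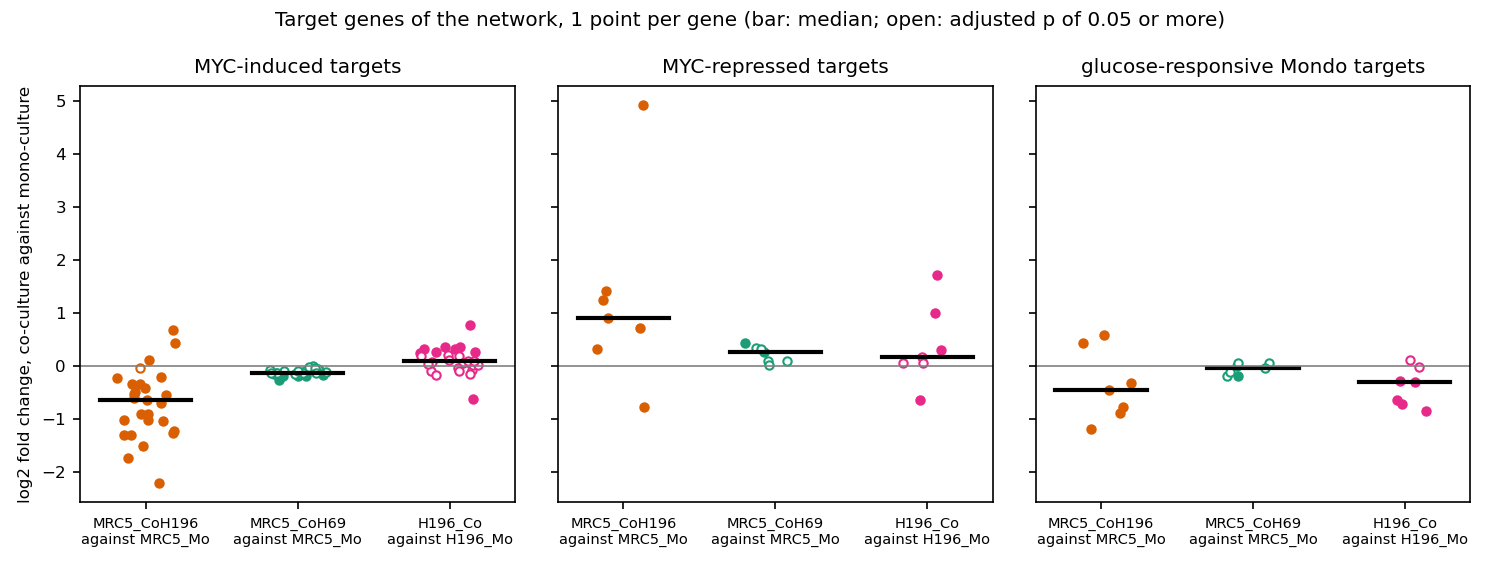
log2 fold changes on co-culture (y axis) of genes known to be induced by MYC, repressed by MYC or driven by glucose through Mondo factors, 1 point per gene, filled where adjusted p was under 0.05; bars are list medians. For MRC5 with H196 the MYC-induced median was -0.65 and the MYC-repressed median 0.91, and for H196 with MRC5 they were 0.08 and 0.18.

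Targets of the Mondo arm other than the arrestins went both ways. Of 7 tested in MRC5_CoH196, 2 rose and 5 fell, where 37.2% of all genes rose and 37.1% fell. The lipogenic genes FASN (-1.19), ELOVL6 (-0.89) and ACACA (-0.78) fell most, while KLF10, a glucose-induced repressor, rose by 0.59. SCD, also lipogenic, was the other that rose. Its difference between the responses, H196 minus MRC5, was -1.25 (SE 0.089, adjusted p = 6.96e-12, edgeR). In H196_Co 0 rose, where 12% of genes did, and 5 of 7 fell, where 7.78% of genes did. They were led by SCD (-0.85), FASN (-0.71) and ACACA (-0.65), which are also targets of the sterol factor SREBF1. SREBF1, listed with the other E-box factors, fell by 1.15 (SE 0.090, adjusted p = 1.44e-08, edgeR) in H196_Co. It fell by 0.40 in MRC5_CoH196, where FASN and ACACA fell and SCD rose. The part of SREBF1 in these changes was not tested. Of the 8 other E-box factors, 0 rose and 3 fell in MRC5_CoH196, the latter near the 37.1% of all genes, and 2 rose and 2 fell in H196_Co.

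Around TXNIP, other alpha-arrestins and the ubiquitin ligases that work with them mostly rose in MRC5_CoH196, at 6 of 8 tested with 1 lower (median 0.49). The counts for MRC5_CoH196 here stand beside 37.2% of all genes that rose and 37.1% that fell, and those for H196_Co beside 12% and 7.78%. NEDD4L (0.80), NEDD4 (0.77) and ARRDC2 (0.74) rose and the ligase WWP2 fell (-0.76). In H196_Co 2 of 8 rose and 1 fell. Of 10 thioredoxin-system genes, 6 fell and 2 rose in MRC5_CoH196, with TXN, the thioredoxin that TXNIP binds, at -0.44 (SE 0.048) and the peroxiredoxin PRDX4 at 0.53, and 0 of 9 passed in H196_Co by edgeR. For MXI1 and its relatives the corepressor scaffolds SIN3A (0.61) and SIN3B (0.48) rose in MRC5_CoH196, 2 of 10 SIN3 subunits to rise beside 4 that fell, a share of falls near that of all genes. In H196_Co 1 of the 10 rose and 1 fell. Of 19 MYC cofactors and turnover factors, 10 fell and 6 rose, the latter near the share of all genes, with the chromatin ATPase RUVBL1 (-0.95) and the MYC-stabilizing proteins AURKA (-0.90) and CIP2A (-0.85) falling most. In H196_Co 2 rose and 1 fell, and PIM1, a kinase that stabilizes MYC, rose by 0.73.

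Pearson correlation of log2 CPM, with each line's mean removed, named the genes whose pattern was nearest to a member. These are descriptions over libraries that share depth and composition, and no p is given. Differences between groups were left in, so r mainly follows the contrast of co-culture between MRC5 and H196 with the other libraries. A small but even shift can then give a high r, as for OS9 (0.29 in MRC5_CoH196, r = 0.994 to TXNIP). For MXI1 over 15 libraries and 8324 genes they were VEGFA, NDRG1, PFKFB3, KDM3A and RNASE4 (r of 0.997 or above). VEGFA, the vascular growth factor, had log2 fold changes of 3.84 in MRC5_CoH196 and 1.12 in H196_Co, beside 3.46 and 1.07 for MXI1. For MYC they were MAFF, HDHD5, ZNRF1, FOSL2 and UAP1 (r = 0.982 to 0.984). For TXNIP, over the 9 MRC5 libraries and 9227 genes, they were APOE, SEMA4G, OS9, STX16 and AKAP10 (r = 0.992 to 0.997). APOE, a lipid carrier, rose by 1.39 in MRC5_CoH196, beside 1.31 for TXNIP. AKAP10 is 1 of the 16 genes with the paired element, and shared regulation was not tested.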

How the data were processed

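Groups were taken from the sample titles. Per the submitters' processing notes and the study's methods, reads of oligo(dT)-selected RNA were filtered, aligned with HISAT2 2.1.0 to GRCh38.p13 and with Bowtie2 2.3.4.3 to the gene sequences, and quantified with RSEM 1.3.1. The authors deposited RSEM expected counts, which are estimated reads per gene and not normalized, and FPKM, scaled per gene length and library by the authors, in 1 table per cell line. Strand was not given in the sources used here. Deposited TPM and normalized counts (18 columns for MRC5, 12 for H196) and the authors' own fold changes, p-values and q-values were not used.

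Expected counts were rounded to whole numbers and fitted in R 4.3.3 with edgeR 4.0.16 (quasi-likelihood test, TMM scaling, filterByExpr), with all groups of a line in 1 fit and all 15 libraries for comparisons between lines. A standard error was taken from each fold change and its F statistic. Alternatives were DESeq2 1.42.0, its size factors, limma 3.58.1 on log2(FPKM + 1) and log2(FPKM + 0.1), no low-count filter, at least 10 counts in every library, only the groups compared, no fold limit, a replicate block and leaving out each library. Ratios of FPKM were compared by exact permutation tests. The script was tested on simulated data: of 100 genes changed by a log2 fold of 1 among 12819, edgeR recovered 94 for MRC5_CoH196 against MRC5_CoH69 with 5 false calls, 94 among 12806 for H196_Co against H196_Mo with 1, and 80 among 13585 for the difference between responses with 8. Another 100 genes were changed by a log2 fold of 2 in each simulation. Simulated counts had the same dispersion (spread beyond counting noise) for every gene and far fewer changed genes than MRC5_CoH196. These rates therefore describe the simulated setting and may not hold for these data. Totals of 16073597 to 19170560 counts limit precision mainly for genes such as ARRDC4 in H196 and MYCL, and SDs cover these libraries only.

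Named genes were all members, up to 3 called genes per list and comparison with the largest change and a mean of at least 10 CPM, and the 5 genes most correlated with MXI1, MYC and TXNIP (TXNIP over the MRC5 libraries alone). Other genes were named after their values were seen: GFPT1, P4HA1, CCND2, SHMT2, FBL, CDKN2B, ARRDC2, KLF10, TXN, PRDX4, SIN3B, the fibroblast markers and the network relatives. Members, lists and motifs were chosen with earlier results of these data known.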

Additional observations from a re-analysis of the deposited data

Results flagged for a closer look

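The change on co-culture differed between H196 and MRC5 cells in 7 of the 9 members tested in both lines, by the interaction term of edgeR's fit over 15 libraries. Of all genes tested, 51.2% differed in this way. Only 1 of the 9 was past the fold limit, where 24.7% of genes were. The differences, H196 minus MRC5 on the log2 scale, were -2.36 for MXI1 (adjusted p = 6.80e-16), -0.55 for MLXIP (8.84e-05), -0.40 for MNT (0.00391) and -0.35 for MYC (0.00381). They were 0.47 for MAX (2.84e-05), 0.46 for MXD3 (0.00915) and 0.39 for MXD4 (5.40e-05). MXD3 no longer passed without MRC5_CoH196 replicate 3 (adjusted p = 0.0777) and in DESeq2 (0.0532). On log2(FPKM + 1) by limma, MLXIP (adjusted p = 0.0918) and MYC (0.0564) no longer passed, while MAX grew to 0.70. Without H196_Co replicate 1, MLXIP was -0.47 and MNT -0.31 (adjusted p = 0.0158), both passing. ARRDC4 passed without MRC5_Mo replicate 3 (0.55, adjusted p = 0.0260). No cause was tested for any of these differences.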

How the results depend on the processing

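Members called in MRC5_CoH196 against MRC5_Mo (4), MRC5_CoH196 against MRC5_CoH69 (5), H196_Mo against MRC5_Mo (5) and between the responses (1) became 8, 8, 9 and 7 with no fold limit, and 0 stayed 0 for MRC5_CoH69 against MRC5_Mo. On both FPKM scales by limma 4 were called in MRC5_CoH196 against MRC5_CoH69 and in H196_Mo against MRC5_Mo, and in MRC5_CoH196 against MRC5_Mo MXD4 (-0.68 and -0.70) was called in place of MLXIP (0.49 and 0.55). In H196_Co against H196_Mo the 2 called became 1 on log2(FPKM + 1) and on log2(FPKM + 0.1) by limma, and 1 to 2 when a library was left out, since MYC fell under the fold limit. Between the responses 1 became 2 with DESeq2, its size factors, both FPKM scales and at least 10 counts in every library, and 1 to 2 when a library was left out. The cause was not tested. Over left-out libraries, values of members that had not passed crossed 0 in MRC5_CoH69 against MRC5_Mo: ARRDC4 -0.17 to 0.10, MXD3 -0.095 to 0.017, MNT -0.025 to 0.059, MLX -0.082 to 0.016, TXNIP -0.024 to 0.21 and MAX -0.04 to 0.022. So did ARRDC4 in MRC5_CoH196 against MRC5_Mo (-0.016 to 0.26) and MLX between the responses (-0.039 to 0.083). On log2(FPKM + 1) and log2(FPKM + 0.1), in that order, ARRDC4 was -0.036 and -0.040 against MRC5_Mo and -0.0054 and -0.0062 against MRC5_CoH69 in MRC5_CoH196, MNT was -0.014 and -0.015 in MRC5_CoH69, and in H196_Mo against MRC5_Mo MAX was 0.10 and 0.11 and MLXIP 0.14 and 0.16. MLX between the responses was -0.0096 with DESeq2 and with its size factors. Among values of single members under alternatives that kept every library, 419 kept direction and side of the threshold, 12 changed sign, 10 lost the threshold and 6 passed it.

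All genes called in MRC5_CoH69 against MRC5_Mo were 71, and 44 with DESeq2, 18 on log2(FPKM + 1) and 859 with no fold limit; in H196_Co they were 494, 195 on log2(FPKM + 1) and 2538 with no limit. With no limit they were 9522 for 4092 in MRC5_CoH196 against MRC5_Mo, 9269 for 3618 against MRC5_CoH69 and 6958 for 3357 between the responses. Same-numbered replicates did not deviate together (12 pairs, r = -0.15 to 0.081), and a library was closest to its own number in 3 of 24 cases, so the numbers were not taken as pairs. With a replicate block the members called were 4, 0, 5, 2, 5 and 1 in the order of comparison, the same counts, and it changed no call of a member. Depth limits ARRDC4 in H196 cells (31 to 53 counts) and MYCL.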
